A study of Mus musculus with 14 samples.

Results

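The results below describe what a short hairpin RNA against Foxm1 did to the transcripts of activated C2C12 cells, a mouse myoblast line. They rest on 7 of the 14 libraries of the study, which were chosen by their labels alone. The first group, shFoxM1 activated, has 4 libraries of cells carrying the hairpin against Foxm1. The second group, shControl activated, has 3 libraries of cells carrying a control hairpin. The other 7 libraries come from quiescent cells of the same 2 kinds, held in methylcellulose. Both groups share the cell line, the shRNA treatment and the activated state. The labels give neither the hairpin sequences nor the number of hairpins, and they do not say how cells were activated or whether libraries within a group came from separate cultures. A p-value here thus reflects only how far these libraries vary, and that variation may be technical. The design text speaks of triplicates, whereas 4 shFoxM1 libraries were given for each state. Expression is in FPKM (fragments per kilobase of transcript, scaled to the size of the library). Of 49585 genes in the table, 11591 reached 1 FPKM in at least 3 of the 7 activated libraries and were tested.

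FoxM1 is a forkhead transcription factor of dividing cells. It is made and activated as cells pass through S and G2 phase, and together with the MuvB complex and B-Myb it drives genes needed for mitosis, such as cyclin B, centromere proteins and Cdc25 phosphatases. Many of these promoters carry a cell cycle genes homology region (CHR), a short element that recruits MuvB. Myoblasts divide before they leave the cell cycle and fuse into muscle fibres, so a proliferating myoblast expresses this programme strongly.

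Estimated depth was similar, at 3.06e+07 to 3.38e+07 reads in shFoxM1 libraries and 3.14e+07 to 3.34e+07 reads in shControl libraries. FPKM columns summed to 2.74e+06 to 3.29e+06 in shFoxM1 libraries, against 3.59e+06 to 4.36e+06 in shControl libraries, and 4 short RNAs (Rmrp, Rn7sk, Rn7s1 and Rn7s2) took 71.5 to 77.5% of it in shFoxM1 cells and 77.3 to 80.1% in shControl cells. The leading principal component, with 42.7% of the variance, did not separate the hairpins, and the next, with 23.5%, did, at 2.49 to 28.1 in shFoxM1 libraries and -22.7 to -3.49 in shControl libraries. Across genes, Spearman's rho of the loadings was 0.50 with GC content for the leading component. For the next it was 0.40 with transcript length. On the leading component, shFoxM1 replicate 4 (33.2) lay beside shControl replicate 3 (30.2), and shFoxM1 replicate 4 resembled that control library more than any other library. Results without both of them are given for Foxm1, for the counts over all genes and for some of the gene lists. Myoblast markers were abundant in every library, with summed levels of 3915 to 4844 FPKM in shFoxM1 libraries and 3105 to 3979 FPKM in shControl libraries, most of it vimentin. The median log2 fold change of the 7 myoblast markers minus that of all genes was -0.35, and 4 of the 7 were below 0. Of the markers of other cell types, no endothelial, epithelial or glial marker reached 1 FPKM, and Tie1, Epcam and Sox10 were at 0 in all 7 libraries. In the macrophage and blood list, 1 of 5 markers (Cd68) reached 1 FPKM, and the list summed to 1.88 to 9.08 FPKM in shFoxM1 libraries and 4.17 to 13.6 FPKM in shControl libraries, with Adgre1 and Hbb-bs at 0. The adipocyte list, with 1 of 4 markers at 1 FPKM, summed to 2.26 to 6.04 FPKM in shFoxM1 libraries and 3.33 to 6.64 FPKM in shControl libraries, and the neuron list, also with 1 of 4, to 5.42 to 8.72 FPKM in shFoxM1 libraries and 4.6 to 8.02 FPKM in shControl libraries. The 4 fibroblast markers, which C2C12 cells also express in part, summed to 246 to 366 FPKM in shFoxM1 libraries and 315 to 673 FPKM in shControl libraries.

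The target of the hairpin was lower in every shFoxM1 library. Foxm1 (ENSMUSG00000001517.14, chromosome 6) measured 14.47, 14.74, 27.58 and 11.21 FPKM in shFoxM1 libraries 1 to 4, against 37.06, 35.34 and 34.93 FPKM in shControl libraries 1 to 3. The groups did not overlap, and shFoxM1 replicate 3 kept more Foxm1 RNA than the other shFoxM1 libraries. The means were 17.0 ± 7.23 FPKM (SD, n = 4) in shFoxM1 cells and 35.8 ± 1.13 FPKM (SD, n = 3) in shControl cells, so that 47.5% of the control level remained. On the log2(FPKM + 1) scale the difference was -1.11 ± 0.26 (SE), with a two-sided exact permutation p of 0.0571, the smallest that 4 against 3 libraries allow. In limma the unadjusted p was 0.00175 and the Benjamini-Hochberg adjusted p over all genes tested was 0.533. Without shFoxM1 replicate 3 the difference was -1.35 (limma adjusted p = 0.14), and without shFoxM1 replicate 4 and shControl replicate 3 it was -0.96.

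**Figure D1:**
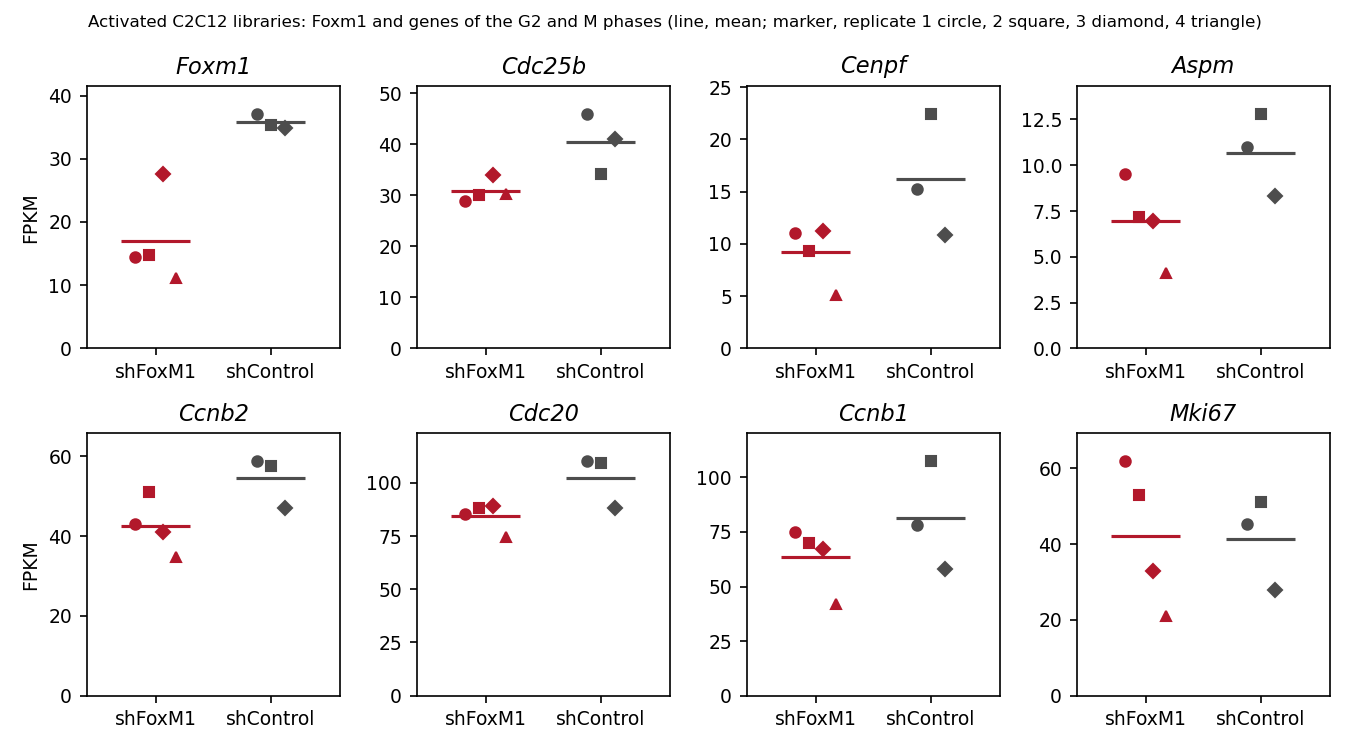
FPKM (vertical axes, starting at 0) of Foxm1 and of 7 G2 and M phase genes in each activated library, with shFoxM1 libraries in red and shControl libraries in grey. Horizontal lines are group means and marker shapes give the replicate number. Foxm1 and Cdc25b are apart between the groups, with Foxm1 between 11.21 and 27.58 FPKM in shFoxM1 libraries, and the other 6 genes overlap.

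No gene passed the adjusted threshold of 0.05 in limma, Foxm1 included. The share of genes called was therefore 0%, and the smallest adjusted p was 0.533. At an unadjusted p below 0.05, 748 genes (6.45% of those tested) were higher and 310 (2.67%) were lower in shFoxM1 cells, 9.13% in all. Library by library, 803 genes (6.93%) lay wholly above and 321 (2.77%) wholly below the shControl libraries, 9.7% in all. Differences were small in size. A log2 fold change of 1 or more was seen for 13 genes, and of -1 or less for 15 genes. The median over all genes was 0.12, and it depended on scaling: it was 0.02 with median-of-ratios or quantile scaling, 0.22 when protein-coding sums were made equal, and 0.52 when whole FPKM sums were made equal, a shift of 0.40. Scaling likewise set the balance of directions. Of the genes at an unadjusted p below 0.05, 70.7% were higher in shFoxM1 cells in the deposited values, 93.7% after equal protein-coding sums, 43.0% after quantile normalization and 32.7% after median-of-ratios scaling, where 2.61% of all genes were higher and 5.37% lower. Once a trend on GC content and transcript length was removed the share was 82.5%, with 6.86% of all genes higher and 1.46% lower. Gene groups are for that reason described by their median minus the median of all genes, and the words higher and lower for single genes refer to the deposited values.

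Genes of the G2 and M phases, the programme FoxM1 is best known for, lay below the bulk of genes. All 40 listed genes were tested, and the list had been chosen with earlier results of these data known. Of the 40, 3 were lower at an unadjusted p below 0.05 (Cdc25b, Cenpf and Aspm), none was higher, and none passed the adjusted threshold, against 2.67% of all genes lower and 6.45% higher at the same threshold. The log2 fold change was below 0 for 32 of the 40, compared with 30.9% of all genes tested. The list median minus that of all genes was -0.22, and it stayed between -0.23 and -0.17 over the 4 other scalings and at -0.27 with the GC and length trend taken out. Leaving out 1 library moved it from -0.49 without shControl replicate 3 to -0.02 without shControl replicate 2. The count of lower members ran from 0 without shControl replicate 1 to 9 without shControl replicate 3. With median-of-ratios scaling 8 were lower, where 5.37% of all genes were. With equal protein-coding sums 1 was lower, where 114 of all genes were. With shFoxM1 replicate 4 and shControl replicate 3 both left out, 8 members were lower and the median minus that of all genes was -0.31. In quiescent cells the list median was 0.07.

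Promoters are shown for the 4 members of this list with the smallest unadjusted p in these data, with the CHR and the CCAAT box marked. Each runs from 250 bases before to 50 bases after the RefSeq start on GRCm38.p6, 5′ to 3′ on the gene's strand, and capitals mark CHR matches (TTTGAA or TTCGAA) and CCAAT boxes (CCAAT, or ATTGG where the box is on the opposite strand). They are Cdc25b at chr2:131186698-131186997 (plus strand), Cenpf at chr1:189688037-189688336 (minus strand), Aspm at chr1:139454523-139454822 (plus strand) and Ccnb2 at chr9:70421505-70421804 (minus strand).
Cdc25b: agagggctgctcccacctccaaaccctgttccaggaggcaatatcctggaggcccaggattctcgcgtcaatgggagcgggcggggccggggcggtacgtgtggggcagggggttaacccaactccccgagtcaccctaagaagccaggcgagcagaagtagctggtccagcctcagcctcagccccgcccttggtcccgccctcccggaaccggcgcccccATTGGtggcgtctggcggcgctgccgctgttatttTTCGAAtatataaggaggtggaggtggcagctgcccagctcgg
Cenpf: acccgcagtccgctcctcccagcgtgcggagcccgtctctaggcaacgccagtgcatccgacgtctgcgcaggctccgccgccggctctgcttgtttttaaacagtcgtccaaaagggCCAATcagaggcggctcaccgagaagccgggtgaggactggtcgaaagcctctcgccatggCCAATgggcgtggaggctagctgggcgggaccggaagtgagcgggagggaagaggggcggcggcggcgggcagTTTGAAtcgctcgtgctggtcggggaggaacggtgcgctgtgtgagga
Aspm: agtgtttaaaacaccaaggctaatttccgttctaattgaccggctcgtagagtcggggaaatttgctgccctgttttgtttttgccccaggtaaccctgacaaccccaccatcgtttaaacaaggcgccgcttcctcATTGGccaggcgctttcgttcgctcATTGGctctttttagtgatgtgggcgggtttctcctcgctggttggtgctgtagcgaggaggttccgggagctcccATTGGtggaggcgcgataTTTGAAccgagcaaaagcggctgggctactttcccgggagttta
Ccnb2: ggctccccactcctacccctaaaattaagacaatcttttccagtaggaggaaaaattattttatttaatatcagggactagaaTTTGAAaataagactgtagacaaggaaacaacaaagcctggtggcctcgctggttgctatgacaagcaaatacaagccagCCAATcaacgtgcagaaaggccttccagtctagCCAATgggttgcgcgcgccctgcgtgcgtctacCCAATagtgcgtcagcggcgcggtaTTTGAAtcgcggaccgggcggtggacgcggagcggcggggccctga

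In all 4 windows a CHR match begins within the first bases of the transcript, at base 8 for Cdc25b, base 3 for Cenpf, base 7 for Aspm and base 5 for Ccnb2, counted from 1 at the start. Ccnb2 holds another match 167 bases before the start. The nearest CCAAT box lies 28 bases before the start in Cdc25b, 71 in Cenpf, 12 in Aspm and 21 in Ccnb2. Of the 40 listed genes, 33 had an entry in the RefSeq promoter table, and 26 of these (78.8%) held a CHR match on either strand, compared with 5254 of 27025 promoters (19.4%) in the whole table. A CHR match and a CCAAT box stood together in 24 of the 33 (72.7%) and in 2082 of all promoters (7.7%). A match is a run of letters and does not show that a factor binds there.

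Cdc25b, the phosphatase that helps switch on Cdk1 at the entry into mitosis, showed the clearest separation in the list. It measured 28.94, 30.02, 33.99 and 30.27 FPKM in shFoxM1 libraries, against 45.92, 34.12 and 41.1 FPKM in shControl libraries. Its groups did not overlap, though shFoxM1 replicate 3 and shControl replicate 2 lay next to each other. The log2 fold change was -0.37 ± 0.14 (limma unadjusted p = 0.0293, adjusted p = 0.533). It was 0.08 when whole FPKM sums were made equal, where the median of all genes was 0.52. Cenpf, a kinetochore protein of G2 and M phase, measured 11.06, 9.28, 11.28 and 5.11 FPKM in shFoxM1 libraries, against 15.24, 22.42 and 10.88 FPKM in shControl libraries. Of the shControl libraries, replicate 3 lay inside the shFoxM1 range, and the log2 fold change was -0.75 ± 0.30 (unadjusted p = 0.0304). Aspm, which acts at spindle poles, measured 9.5, 7.2, 6.98 and 4.14 FPKM in shFoxM1 libraries, against 10.97, 12.79 and 8.31 FPKM in shControl libraries. Here too shControl replicate 3 overlapped the shFoxM1 libraries, and the log2 fold change was -0.58 ± 0.25 (unadjusted p = 0.042).

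Other members of the programme were not separated from control. Ccnb2, a mitotic cyclin, averaged 42.4 ± 6.70 FPKM in shFoxM1 cells and 54.5 ± 6.35 FPKM in shControl cells, with a log2 fold change of -0.36 ± 0.16 (unadjusted p = 0.0519). Cdc20, an activator of the anaphase-promoting complex, averaged 84.2 ± 6.81 FPKM in shFoxM1 cells and 102 ± 12.3 FPKM in shControl cells, with a log2 fold change of -0.28 ± 0.14 (unadjusted p = 0.0735). Cyclin B1 (Ccnb1) differed by -0.34 ± 0.25. These 3 genes had values above 0 when whole FPKM sums were made equal, where the median of all genes was 0.52. With median-of-ratios scaling their unadjusted p-values in limma were 0.0171 (Ccnb2), 0.0247 (Cdc20) and 0.109 (Ccnb1). The mitotic kinases Plk1 and Cdk1 differed by 0.05 ± 0.18 and -0.13 ± 0.29, and the proliferation marker Mki67 by -0.04 ± 0.36, each within its standard error and each changing sign under other settings. Mki67 measured 61.83, 52.89, 32.99 and 21.04 FPKM in shFoxM1 libraries, against 45.43, 51.09 and 27.77 FPKM in shControl libraries. The lowest value in either group belonged to the pair of libraries that stood together on the first principal component.

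With all 7 libraries, the lists of FoxM1 partners, G1/S genes and DNA replication genes lay nearer to the bulk of genes than the G2 and M list. The list of MuvB, Myb and pocket protein genes has 15 tested members, Foxm1 among them. Foxm1 was the 1 member lower at an unadjusted p below 0.05 and the 1 member below 0 in the deposited values. Of the other 14, 1 was higher (Tfdp2, a dimer partner of E2F factors, at 0.39 ± 0.17), where 6.45% of all genes were, and the median of the list minus that of all genes was 0.06. Mybl2, which encodes B-Myb, measured 19.42, 19.96, 15.18 and 13.31 FPKM in shFoxM1 libraries, against 11.76, 12.06 and 16.97 FPKM in shControl libraries. Its groups overlapped. Of 15 E2F and G1/S genes, 1 was higher and none lower. That gene was Cdc25a, a phosphatase of the G1/S transition, at 10.1 ± 1.76 FPKM in shFoxM1 cells and 7.24 ± 1.52 FPKM in shControl cells (log2 fold change 0.43 ± 0.19, unadjusted p = 0.048). Cyclin D1 (Ccnd1), which couples growth signals to G1 progression, averaged 153 ± 32.0 FPKM in shFoxM1 cells and 107 ± 32.9 FPKM in shControl cells, with an unadjusted p of 0.0511. None of 38 DNA replication genes and none of 17 recombination repair genes reached an unadjusted p below 0.05 in either direction, nor did any of 12 tubulin and 14 chromosome structure and Polycomb genes. The median of the replication list minus that of all genes was -0.05. It ran from -0.27 without shControl replicate 3 to 0.05 without shControl replicate 2, the same libraries as for the G2 and M list. With shFoxM1 replicate 4 and shControl replicate 3 both left out it was -0.12. Among 4 measured CDK inhibitors none reached an unadjusted p below 0.05. Their median minus that of all genes was -0.29, and 3 of the 4 were below 0, with Cdkn2d at -0.60 ± 0.28. Cdkn1a (p21), the 1 member above 0, differed by 0.17 ± 0.30. The forkhead list held 19 other family members, of which 15 were tested and 2 (Foxk2 and Foxf2) were higher.

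Mdm2, the ubiquitin ligase that limits p53 and is itself a p53 target, had the smallest unadjusted p of its list. It measured 50.06, 41.58, 49.12 and 52.28 FPKM in shFoxM1 libraries, against 23.26, 34.13 and 35.87 FPKM in shControl libraries. All shFoxM1 values exceeded all shControl values, with a log2 fold change of 0.64 ± 0.18 (unadjusted p = 0.00505). It was the 1 member of 17 p53 targets at an unadjusted p below 0.05. That count is near the share of all genes, of which 6.45% were higher. The list median minus that of all genes was 0.05.

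The 12 named genes with the largest separated differences above control lay between 0.77 and 0.92 on the log2 scale. Dusp9, a phosphatase that switches off ERK kinases, measured 4.36, 4.65, 7.04 and 5.7 FPKM in shFoxM1 libraries, against 1.58, 2.03 and 3.86 FPKM in shControl libraries. The groups did not overlap, and the log2 fold change was 0.92 ± 0.24 (unadjusted p = 0.00405). Lrp8, a receptor for reelin and apolipoprotein E, measured 12.8, 13.11, 20.83 and 8.5 FPKM in shFoxM1 libraries, against 5.64, 6.83 and 7.19 FPKM in shControl libraries (log2 fold change 0.91 ± 0.25). Megf10, a surface receptor known in muscle satellite cells for keeping them proliferating, measured 27.9, 31.02, 38.51 and 26.41 FPKM in shFoxM1 libraries, against 14.42, 15.33 and 19.47 FPKM in shControl libraries. It was 0.87 ± 0.17 on the log2 scale, with an unadjusted p of 0.000638. Fgfrl1, an FGF receptor without a kinase domain, and Antxr2, a matrix-binding anthrax toxin receptor, differed by 0.79 ± 0.17 and 0.78 ± 0.17, with every shFoxM1 library above every shControl library. Pmepa1, a feedback inhibitor of TGF-beta signalling, differed by 0.91 ± 0.36, and its 89.55 FPKM in shFoxM1 replicate 3 lay far above the 28.08 to 34.1 FPKM of the other shFoxM1 libraries. Without that library its log2 fold change was 0.54. B4galt5 (0.77), a galactosyltransferase, Prrg4 (0.78), a vitamin K-dependent membrane protein, and Slc36a1 (0.77), an amino acid transporter, completed the 12 highest named genes together with Fasn, Dusp4 and Dusp5.

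**Figure D2:**
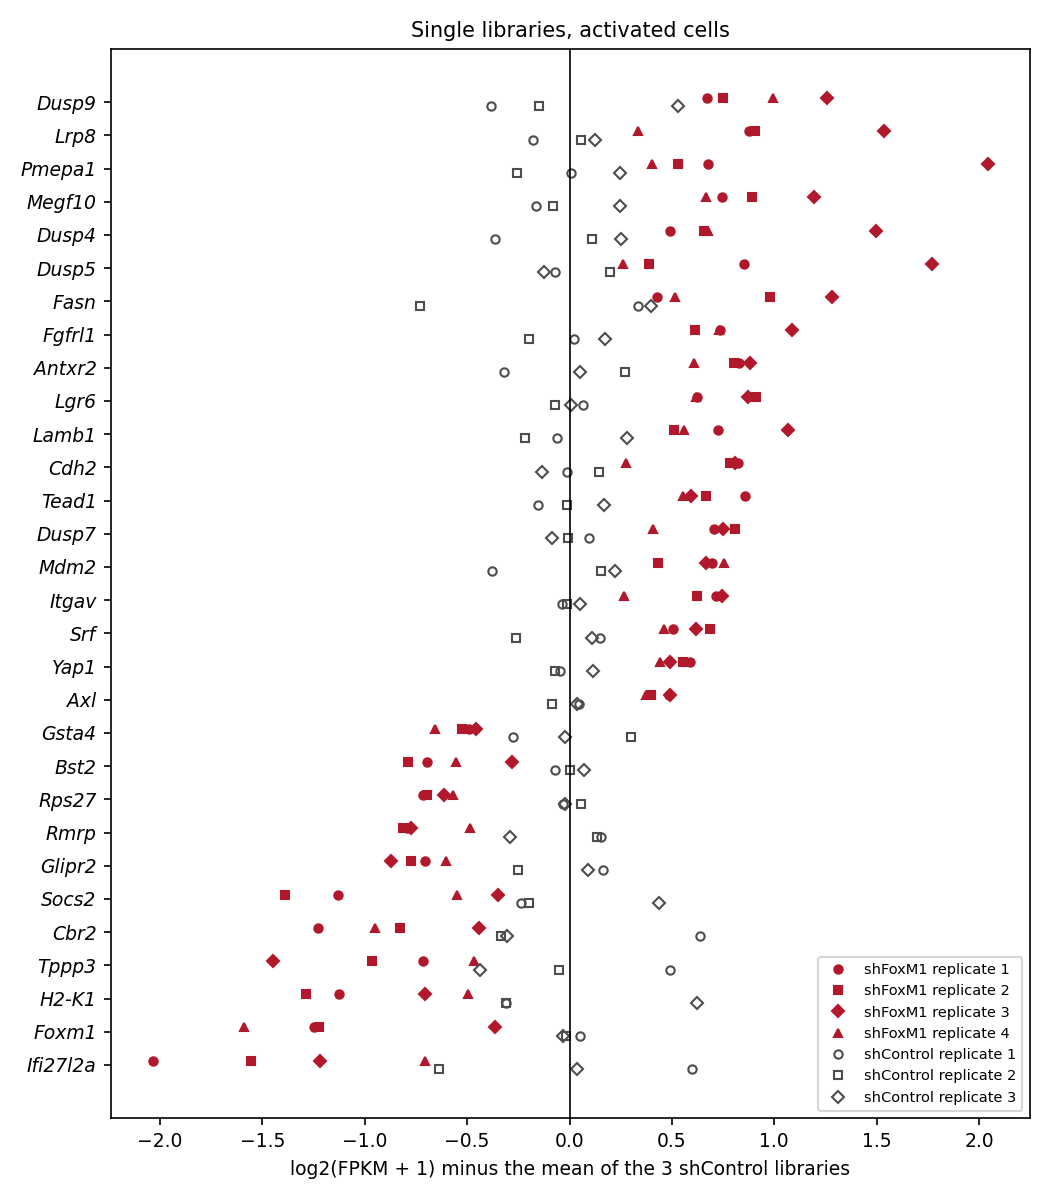
Each point is 1 activated library, placed by its log2(FPKM + 1) minus the mean of the 3 shControl libraries (horizontal axis) for 30 named genes (vertical axis). Filled red markers are shFoxM1 libraries, drawn above the open grey shControl markers of the same gene. Of the upper genes, Pmepa1, Dusp5, Dusp4 and Lrp8 have shFoxM1 replicate 3 farthest to the right, and Foxm1 is nearest to control in that same library.

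Immediate early genes, which respond within minutes to growth factors, had 5 of 24 tested members higher at an unadjusted p below 0.05 and none lower, where 6.45% of all genes were higher. The list median minus that of all genes was 0.19, between 0.13 and 0.19 over the other scalings and 0.19 with the GC and length trend taken out. The count ran from 2 without shControl replicate 1 to 9 without shControl replicate 2. Dusp4, a nuclear ERK phosphatase, measured 50.25, 56.41, 101.78 and 57.27 FPKM in shFoxM1 libraries, against 27.32, 38.4 and 42.42 FPKM in shControl libraries. Replicate 3 was again the highest shFoxM1 library, and the log2 fold change was 0.83 ± 0.25, or 0.61 without that library. Dusp5, another ERK phosphatase, differed by 0.82 ± 0.33 and by 0.50 without it. Nr4a1, an orphan nuclear receptor, measured 4.09, 3.28, 4.53 and 4.65 FPKM in shFoxM1 libraries, against 2.81, 2.52 and 2.12 FPKM in shControl libraries. These groups were apart, with a log2 fold change of 0.56 ± 0.16 (unadjusted p = 0.00766). Fosl1, an AP-1 subunit, averaged 67.1 ± 13.2 FPKM in shFoxM1 cells and 40.4 ± 13.2 FPKM in shControl cells, with overlapping groups and a log2 fold change of 0.74 ± 0.23. Outside the list, the ERK phosphatase Dusp7 measured 11.85, 12.77, 12.22 and 9.45 FPKM in shFoxM1 libraries, against 7.4, 6.84 and 6.42 FPKM in shControl libraries. Its log2 fold change was 0.67 ± 0.15 (unadjusted p = 0.00165).

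Factors and targets of the YAP, TEAD and SRF pathways read the tension of the actin skeleton. Of 21 tested members 8 were higher at an unadjusted p below 0.05 and none was lower, where 6.45% of all genes were higher and 2.67% lower. The list median minus that of all genes was 0.19, between 0.17 and 0.25 over the other scalings, and 0.10 with the GC and length trend taken out, where 5 members were higher. Leaving out 1 library gave 4 to 9 higher members, with 4 when shFoxM1 replicate 1 was absent. Tead1, a DNA-binding partner of YAP, measured 26.22, 22.87, 21.68 and 21.05 FPKM in shFoxM1 libraries, against 12.51, 13.9 and 15.9 FPKM in shControl libraries. The groups were well apart, and the log2 fold change was 0.67 ± 0.15 (unadjusted p = 0.00126). Yap1, the coactivator itself, measured 43.81, 42.79, 40.95 and 39.45 FPKM in shFoxM1 libraries, against 27.92, 27.42 and 31.29 FPKM in shControl libraries (0.52 ± 0.13). Srf, the serum response factor, differed by 0.57 ± 0.15 and Axl, a receptor tyrosine kinase and YAP target, by 0.44 ± 0.11, both with separate groups. The classical targets were more variable. Ccn1 averaged 113 ± 19.5 FPKM in shFoxM1 cells and 78.4 ± 22.2 FPKM in shControl cells, with overlap and a log2 fold change of 0.55 ± 0.21. Ccn2 measured 37.1, 20.81, 65.92 and 14.51 FPKM in shFoxM1 libraries, against 13.94, 27.62 and 5.9 FPKM in shControl libraries, so that its 1.09 ± 0.55 had an unadjusted p of 0.0793.

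Matrix genes and their receptors had single members above control. Lamb1, the beta chain of laminins, measured 39.12, 33.5, 49.87 and 34.69 FPKM in shFoxM1 libraries, against 22.22, 19.85 and 28.48 FPKM in shControl libraries. The groups were apart, with a log2 fold change of 0.71 ± 0.18 (unadjusted p = 0.00344). Lamc1, a laminin gamma chain, differed by 0.60 ± 0.21 with overlapping groups. Col4a1 and Col4a2, the paired chains of the main basement membrane collagen, differed by 0.60 ± 0.20 and 0.56 ± 0.20. Itgav, the alpha subunit of vitronectin-binding integrins, measured 42.24, 39.54, 43.07 and 30.58 FPKM in shFoxM1 libraries, against 24.62, 25.1 and 26.21 FPKM in shControl libraries (0.59 ± 0.15, unadjusted p = 0.00358). Their lists as wholes were close to the bulk of genes. Of 14 collagens 3 were higher, against 6.45% of all genes, and none with the GC and length trend taken out. The collagen median minus that of all genes was -0.03, or 0.08 with quantile normalization and -0.13 with that trend taken out. It ran from -0.36 without shControl replicate 2 to 0.21 without shControl replicate 3. Of 21 matrix glycoproteins and proteoglycans 2 were higher, of 17 matrix proteases and crosslinking enzymes 1, and of 10 integrins 1, with none lower in these lists.

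Cell contact and Wnt genes had a few separated members. Cdh2, the N-cadherin of myoblasts, measured 45.85, 44.72, 45.51 and 31.16 FPKM in shFoxM1 libraries, against 25.31, 28.32 and 23.21 FPKM in shControl libraries. Replicate 4 was the lowest of the shFoxM1 libraries and still above every control, and the log2 fold change was 0.67 ± 0.17 (unadjusted p = 0.0031). Ctnnb1, which encodes beta-catenin, differed by 0.23 ± 0.23 with overlapping groups. The destruction complex component Apc was higher by 0.42 ± 0.18, also with overlap. Lgr6, a receptor for R-spondins that strengthens Wnt signals, measured 14.19, 17.54, 17.07 and 14.14 FPKM in shFoxM1 libraries, against 9.31, 8.4 and 8.9 FPKM in shControl libraries. With 0.76 ± 0.15 it had one of the smallest unadjusted p-values of the comparison, 0.000482, and an adjusted p of 0.533. Tcf7l2, a DNA-binding partner of beta-catenin, differed by 0.59 ± 0.19 with separate groups. Of 12 Wnt targets and feedback genes 3 were higher, of 14 beta-catenin and destruction complex genes 2, of 10 Notch genes 1, of 19 TGF-beta and BMP genes 3 and of 13 IGF genes none, and no member of these lists was lower, where 6.45% of all genes were higher and 2.67% lower. Without the GC and length trend the counts of higher members were 2 for Wnt, 1 for beta-catenin and 0 for Notch and for TGF-beta and BMP genes. In the deposited values the Wnt list, with 12 of 23 listed genes tested, had a median minus that of all genes of -0.07. The same value was 0.05 for beta-catenin, 0.11 for Notch, 0.10 for TGF-beta and BMP and 0.13 for IGF genes. Among 13 genes of muscle stem cell quiescence 2 were higher. They were Sdc3, a heparan sulphate proteoglycan, at 0.76 ± 0.25, and the FGF receptor Fgfr1 at 0.54 ± 0.22.

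In the deposited values, lipid synthesis showed the highest list median. Of 28 cholesterol and fatty acid synthesis genes, 26 had a log2 fold change above 0, compared with 69.1% of all genes, and 1 was higher at an unadjusted p below 0.05, compared with 6.45%. The median minus that of all genes was 0.25, between 0.23 and 0.30 over the other scalings and 0.25 with the GC and length trend taken out. With 1 library left out it ran from -0.03 without shFoxM1 replicate 3, with 0 members higher, to 0.45 without shFoxM1 replicate 4, with 9 members higher. Fasn, the fatty acid synthase, measured 48.0, 70.87, 87.54 and 51.08 FPKM in shFoxM1 libraries, against 45.02, 20.96 and 47.0 FPKM in shControl libraries. The groups barely separated, with a log2 fold change of 0.80 ± 0.31 (unadjusted p = 0.0268). Hk2, a hexokinase that opens glycolysis, differed by 0.72 ± 0.24, and 2 of 18 hypoxia and glycolysis genes were higher. Of 16 unfolded protein response genes 1 was higher, of 21 Myc network and ribosome biogenesis genes 2, of 16 fatty acid oxidation genes 1 higher and 1 lower, and of 19 integrated stress response genes none in either direction. With shFoxM1 replicate 4 and shControl replicate 3 both left out, 4 of the 19 integrated stress response genes were higher and none was lower. Their median minus that of all genes was then 0.11, against -0.18 with all 7 libraries. The Nrf2 list of 16 antioxidant genes was split, with 1 higher and 1 lower. Gclm, a subunit of the enzyme that begins glutathione synthesis, was higher by 0.44 ± 0.15, and Gsta4, a glutathione transferase, measured 212.76, 207.91, 217.95 and 189.52 FPKM in shFoxM1 libraries, against 247.09, 368.68 and 294.62 FPKM in shControl libraries (-0.53 ± 0.15, unadjusted p = 0.00612).

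In the deposited values, muscle differentiation genes had the lowest median of the pathway lists, with little separation. Of 35 listed sarcomere and differentiation genes 18 were expressed enough to be tested. The log2 fold change was below 0 for 14 of the 18, compared with 30.9% of all genes. At an unadjusted p below 0.05, 1 was lower, where 2.67% of all genes were. The list's median log2 fold change was -0.45, and -0.9996 in quiescent cells, where Acta1 differed by -1.67. The median minus that of all genes was -0.56, between -0.71 and -0.55 over the other scalings. Leaving out 1 library gave -1.02 without shFoxM1 replicate 4 and -0.29 without shControl replicate 3, and 9 members were lower without shFoxM1 replicate 4. With shFoxM1 replicate 4 and shControl replicate 3 both left out, 7 were lower and the median minus that of all genes was -0.76. Des, the intermediate filament protein of muscle, measured 91.06, 79.93, 67.02 and 122.85 FPKM in shFoxM1 libraries, against 197.91, 84.97 and 164.16 FPKM in shControl libraries. The groups overlapped because shControl replicate 2 lay inside the shFoxM1 range, and the log2 fold change was -0.67 ± 0.29 (unadjusted p = 0.0486). Acta1, skeletal actin, averaged 19.1 ± 7.82 FPKM in shFoxM1 cells and 31.6 ± 11.5 FPKM in shControl cells (unadjusted p = 0.0721). Myod1, the master regulator of the muscle lineage, measured 10.3, 6.04, 4.04 and 9.07 FPKM in shFoxM1 libraries, against 15.9, 7.95 and 12.76 FPKM in shControl libraries (-0.68 ± 0.31, unadjusted p = 0.0544). In these bulk samples fewer differentiating cells and less RNA per cell cannot be told apart. The 5 markers of differentiated muscle summed to 9.86 to 39.6 FPKM in shFoxM1 libraries and 30.2 to 46.4 FPKM in shControl libraries. Of 13 myogenic regulators 1 was higher, where 6.45% of all genes were. This was Eya1, a transcriptional cofactor of early muscle cells, at 20.4 ± 5.39 FPKM in shFoxM1 cells and 13.2 ± 1.75 FPKM in shControl cells.

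The genes farthest below control, beside Foxm1, included interferon and antigen presentation genes at low levels. Ifi27l2a, an interferon-induced gene, measured 0.85, 1.58, 2.26 and 3.64 FPKM in shFoxM1 libraries, against 10.46, 3.88 and 6.78 FPKM in shControl libraries. The groups were apart by a narrow margin, with a log2 fold change of -1.38 ± 0.35 (unadjusted p = 0.00324). H2-K1, a class I MHC heavy chain that belongs to a family of near-identical genes, measured 2.54, 2.17, 3.74 and 4.48 FPKM in shFoxM1 libraries, against 5.24, 5.23 and 10.9 FPKM in shControl libraries (-0.90 ± 0.28). Reads of such copies may be split among them. Bst2, the virus-tethering protein tetherin, differed by -0.58 ± 0.16 with separate groups, and Ifi35 by -0.44 ± 0.18 with overlap. These were the 2 lower members of 11 tested interferon genes, of 24 listed, where 2.67% of all genes were lower. The list median minus that of all genes was -0.27. With the GC and length trend taken out it was -0.18, and 1 member was lower. In the chemokine and cytokine list 1 of 18 members was higher and 2 were lower, against 6.45% and 2.67% of all genes. Among the lower was Ccl5, a chemokine for lymphocytes, at -0.80 ± 0.24. It averaged 1.69 ± 0.851 FPKM in shFoxM1 cells and 3.55 ± 0.626 FPKM in shControl cells. Values at this level rest on few reads.

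Further genes apart below control have no common pathway in the lists. Glipr2, a Golgi-associated protein, measured 20.96, 19.96, 18.58 and 22.59 FPKM in shFoxM1 libraries, against 39.13, 29.07 and 37.18 FPKM in shControl libraries. It had tight groups, with a log2 fold change of -0.74 ± 0.15 (unadjusted p = 0.000748). Cbr2, a carbonyl reductase, averaged 47.1 ± 11.1 FPKM in shFoxM1 cells and 89.3 ± 37.3 FPKM in shControl cells (-0.86 ± 0.27). Tppp3, a tubulin-binding protein, averaged 16.6 ± 4.82 FPKM in shFoxM1 cells and 32.0 ± 10.8 FPKM in shControl cells (-0.90 ± 0.27). Socs2, a suppressor of cytokine and growth hormone signalling, averaged 3.25 ± 1.40 FPKM in shFoxM1 cells and 6.55 ± 2.1 FPKM in shControl cells (-0.85 ± 0.28). Immp2l, a subunit of a mitochondrial inner membrane peptidase, differed by -0.79 ± 0.23.

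Relative to all genes, short transcripts had lower and long transcripts higher values as a class. For the 323 genes whose longest transcript has at most 500 bases, the median log2 fold change was -0.25, and 20.7% were lower and 2.17% higher at an unadjusted p below 0.05. For the 620 genes above 8000 bases it was 0.27, with 0.484% lower and 17.7% higher. The classes between these ran in order, at -0.16, -0.02, 0.11 and 0.21. Across genes, which are not independent, Spearman's rho of log2 fold change with length was 0.472. Once a smooth trend on GC content and length was removed, the 6 class medians lay between 0.07 and 0.11. The removal levels these medians by construction. In quiescent cells the class medians ran from 0.05 in the shortest class to -0.02 in the longest. Many of the higher genes named above are long, for example Tead1 with 9964 bases, Megf10 with 7514 and Lgr6 with 6675, and with the trend removed their log2 fold changes were 0.50, 0.71 and 0.61. Beyond these values, the part of transcript length in any group's difference was not tested.

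**Figure D3:**
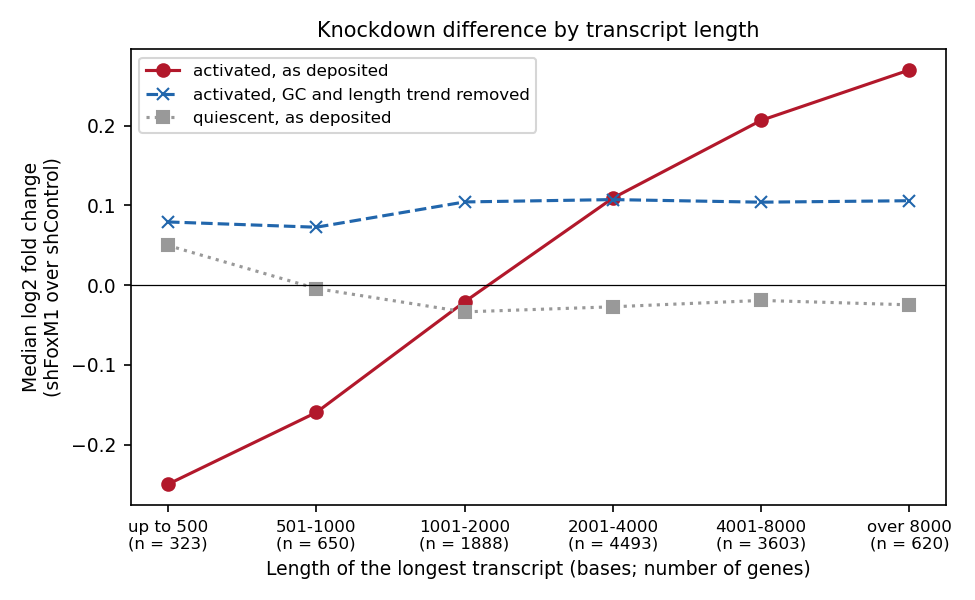
Median log2 fold change of shFoxM1 over shControl (vertical axis) in 6 classes of transcript length in bases (horizontal axis, with the number of genes), in activated cells as deposited, in activated cells with the GC and length trend taken out, and in quiescent cells. The activated line climbs from -0.25 in the shortest class to 0.27 in the longest, and the other lines stay between -0.03 and 0.11. The line with the trend taken out is level by construction.

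Ribosomal protein genes lay below the bulk of genes in the deposited values. Of 24 ribosomal protein genes 9 were lower at an unadjusted p below 0.05 and 13 lay wholly below the shControl libraries, where 2.67% and 2.77% of all genes did. The median minus that of all genes was -0.33, but 0.02 with quantile normalization and -0.19 with the GC and length trend taken out, where 4 members were lower and 1 was higher. Rps27, a small subunit protein and not a member of that list, had the smallest unadjusted p of all genes, 0.000132. It measured 3646.59, 3691.61, 3917.84 and 4032.58 FPKM in shFoxM1 libraries, against 5854.3, 6220.52 and 5890.48 FPKM in shControl libraries. The groups were tight and far apart at -0.65 ± 0.10, or -0.41 with the trend removed. Rps14 and Rplp1 differed by -0.51 ± 0.12 and -0.38 ± 0.11. Rplp1 was above 0 when whole FPKM sums were made equal, where the median of all genes was 0.52. Ribosomal proteins have many processed pseudogenes, such as Rps15a-ps3 (-0.72), whose reads may be shared with the genes.

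Histone genes had 6 of 15 tested members lower, against 2.67% of all genes, and a median minus that of all genes of -0.51, or -0.29 with the trend removed, where none was lower at an unadjusted p below 0.05. The count was 0 without shControl replicate 1 and 11 without shControl replicate 3. It was 10 with shFoxM1 replicate 4 and shControl replicate 3 both left out. Hist1h3b, a replication-dependent H3 gene, measured 1383.38, 1398.56, 978.39 and 1065.5 FPKM in shFoxM1 libraries, against 1981.86, 1883.41 and 1350.52 FPKM in shControl libraries. The groups overlapped, with a log2 fold change of -0.52 ± 0.18. The linker histone gene Hist1h1c differed by -0.39 ± 0.14 with separate groups, and Hist2h2ab, 1 of the 12 lowest named genes, by -0.73 ± 0.26. Replication-dependent histone genes are near-identical copies whose messages lack a poly(A) tail.

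Of 13 transcripts of the mitochondrial genome 2 were lower at an unadjusted p below 0.05, and of 22 nuclear respiratory chain genes 2, where 2.67% of all genes were. With the GC and length trend taken out both counts were 0. mt-Atp6, an ATP synthase subunit, measured 1834.34, 2072.58, 1941.06 and 1934.58 FPKM in shFoxM1 libraries, against 4613.21, 2967.72 and 2300.63 FPKM in shControl libraries. The shControl libraries were much more spread than the shFoxM1 libraries, and the log2 fold change was -0.70 ± 0.21, or -0.44 without that trend. mt-Nd3, a complex I subunit, differed by -0.55 ± 0.20. Ndufa1 of complex I and Sdhb of complex II differed by -0.39 ± 0.14 and -0.29 ± 0.13. Both were above 0 when whole FPKM sums were made equal, where the median of all genes was 0.52. The median of the mitochondrial list minus that of all genes was -0.35, but 0.08 with quantile normalization. It was -0.10 without the GC and length trend and -0.05 without shControl replicate 2. With shFoxM1 replicate 4 and shControl replicate 3 both left out it was -0.57, and 6 of the 13 transcripts were lower.

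Small non-coding RNAs were the lowest gene type. Of 16 snoRNAs 11 were lower at an unadjusted p below 0.05, against 2.67% of all genes, with a median log2 fold change of -0.66, or -0.13 with the GC and length trend taken out. Snora74a, an H/ACA snoRNA, measured 602.62, 759.34, 506.14 and 1109.51 FPKM in shFoxM1 libraries, against 1680.33, 1312.75 and 1191.55 FPKM in shControl libraries. Its groups did not overlap (-0.95 ± 0.25). The 7 snRNA genes, among which there are near-identical copies, had a median of -2.55, and 2 of them were lower. With the GC and length trend taken out the snRNA median was -1.97. Rmrp, the RNA of the RNase MRP complex, measured 370074, 364689, 375407 and 458287 FPKM in shFoxM1 libraries, against 714777, 704284 and 524671 FPKM in shControl libraries. It was -0.72 ± 0.15, or -0.32 with the trend removed, and it is 1 of the 4 short RNAs that make up most of the column sums. Of 12 snoRNA host genes 1 was lower, Snhg8, at -0.27 ± 0.12, or -0.03 with the trend removed.

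The study profiled lncRNAs as well as mRNAs. Of 115 lincRNA genes tested, 5 were higher and 3 lower at an unadjusted p below 0.05, and of 80 antisense genes 2 were higher and 1 lower. Over all genes 6.45% were higher and 2.67% lower, so the lincRNA and antisense counts are near or below the background. Of 65 genes of the type TEC, 6 were higher and none lower, and of 83 processed transcripts 2 were higher and 6 lower. The TEC count of higher genes is near the background, and the processed transcript count of lower genes is above it. The TEC count holds Gm47122 and the processed transcript count holds Tmem147os, whose directions were favoured by the filter, as given below. Neither count is thus read as a result. Among 8 nuclear and microRNA host lncRNAs 2 were higher, Mir155hg and Malat1. Mir155hg, the host transcript of miR-155, measured 1.11, 1.22, 1.31 and 1.29 FPKM in shFoxM1 libraries, against 0.41, 0.96 and 0.35 FPKM in shControl libraries. It passed the filter of 1 FPKM through the shFoxM1 libraries alone, so its direction was favoured by the filter and its call supports nothing. Malat1, an abundant nuclear RNA, averaged 1989 ± 93.6 FPKM in shFoxM1 cells and 1637 ± 236 FPKM in shControl cells, with separate groups and a log2 fold change of 0.29 ± 0.13. The highest lncRNA or TEC genes were Gm47122 (0.83 ± 0.20), Gm37494 (0.76 ± 0.33) and 2510016D11Rik (0.67 ± 0.23). Gm37494 is a lincRNA, and the others are of the type TEC. The lowest were Gm10076 (-0.60 ± 0.12), the gene ENSMUSG00000109224.1 of Tmem147os (-0.56 ± 0.18) and 4930461G14Rik (-0.47 ± 0.18). Gm47122 passed the filter through shFoxM1 libraries alone and Tmem147os through shControl libraries alone, so that the filter favoured their directions. Gm10076 stands out among them by its level, at 1255.51 to 1432.61 FPKM in shFoxM1 libraries against 1926.87 to 2291.44 FPKM in shControl libraries, while Gm47122 was listed at 0 in 2 of the 3 shControl libraries. Counting is not stated to use strand, so antisense genes such as Tmem147os cannot be told apart from their partners.

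**Figure D4:**
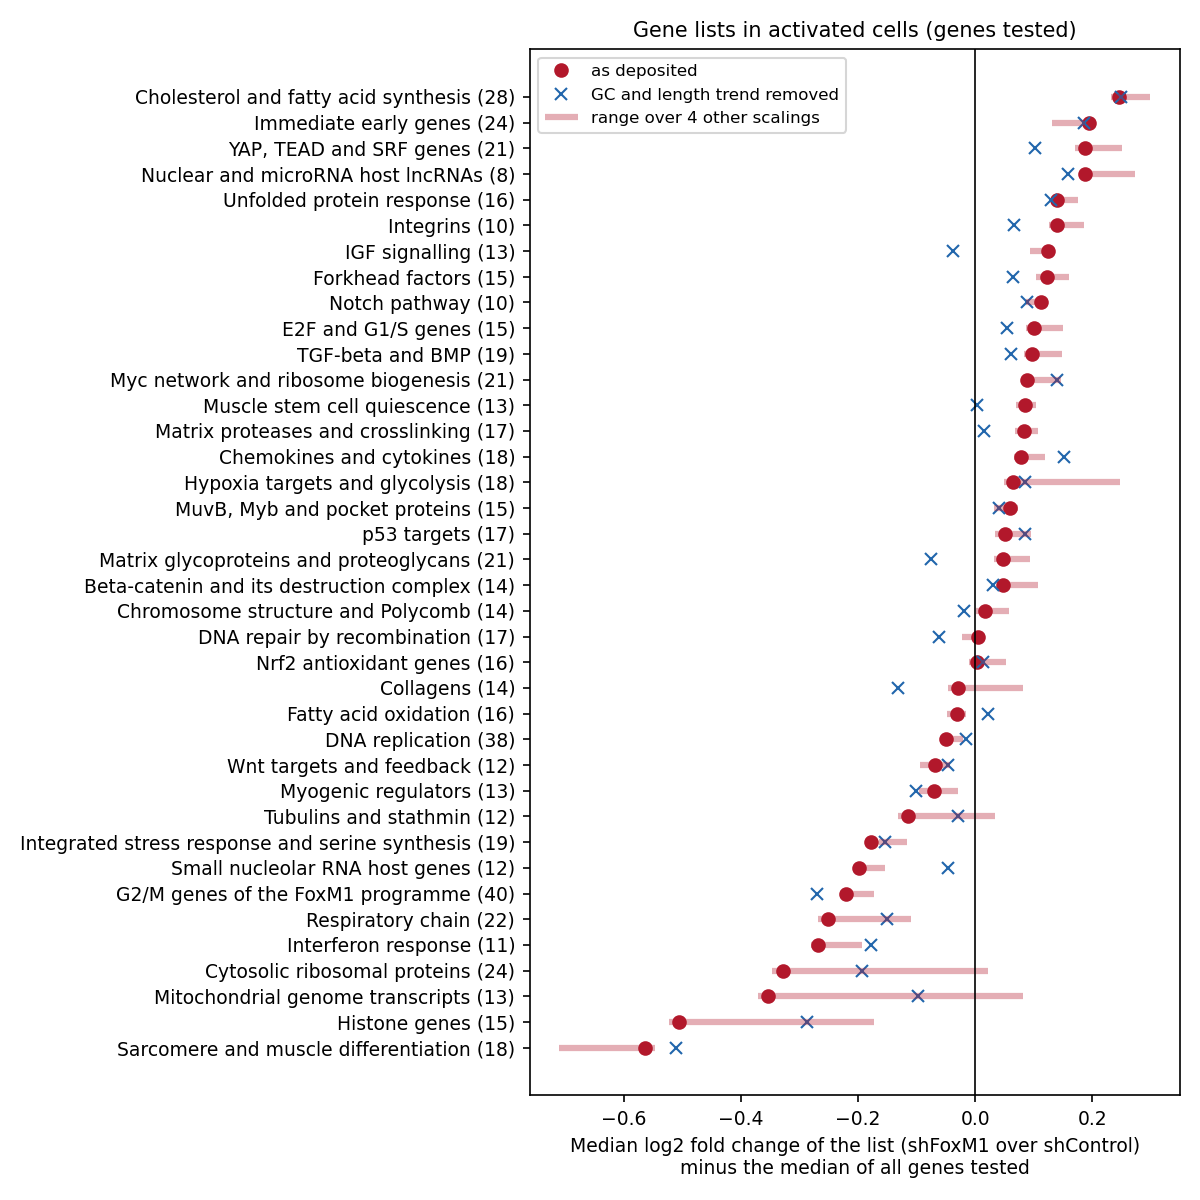
Median log2 fold change of each gene list minus the median of all genes (horizontal axis) for 38 lists with at least 5 genes tested (vertical axis, with the number of genes tested). Red dots are deposited values, pale bars the range over 4 other scalings and blue crosses the values with the GC and length trend taken out. Cholesterol and fatty acid synthesis lies at 0.25, G2/M genes at -0.22 and sarcomere genes at -0.56, while the bars of ribosomal protein and mitochondrial genome genes cross 0.

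The same hairpins were compared in quiescent cells, with no library in common. There, too, no gene passed the adjusted threshold, and at an unadjusted p below 0.05 66 genes (0.569%) were higher and 171 (1.48%) lower in shFoxM1 cells. Foxm1 differed by -0.56 in quiescent cells, and the activated minus quiescent difference of -0.55 had an unadjusted p of 0.24. The test of that difference over all genes called none in limma, and 359 genes (3.1%) lay above and 54 (0.466%) below 0 at an unadjusted p below 0.05. Examples follow, picked with their values in view. The log2 fold change of Lamb1 was 0.71 in activated cells and -0.32 in quiescent cells, a difference of 1.04 (unadjusted p = 0.00156, adjusted p = 0.985). Axl had 0.44 in activated and -0.15 in quiescent cells, with an unadjusted p of 0.00335 for the difference. For Itgav the values were 0.59 and -0.19, for Col4a1 0.60 and -0.30, and for Ccn1 0.55 and -0.41. Values of signalling genes are set beside these. Nr4a1 had 0.56 in activated cells and -0.27 in quiescent cells, and Dusp7 0.67 and -0.05. Gsta4 ran the other way, at -0.53 in activated cells and 0.26 in quiescent cells (unadjusted p = 0.00764 for the difference). Ifi27l2a, Glipr2 and Rps27 had values below 0 in both states, at -1.21, -0.60 and -0.50 in quiescent cells.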

How the data were processed

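RNA from C2C12 cells was sequenced from TruSeq libraries on an Illumina HiSeq 2000, per the labels. The authors deposited FPKM values in 1 table. Bowtie 0.12.9, Cufflinks 2.1.1, HTSeq and mm10 are named per the submitters' processing notes, and which step made the values is not given in the sources used here. Reads per library were estimated from the steps of low values, of which 89.6 to 91.1% lay within 0.15 of a whole read. They give no count per gene, so no counting interval is printed.

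Values were transformed to log2(FPKM + 1). Genes that reached 1 FPKM in 3 or more of the 7 activated libraries were tested with limma 3.58.1 (R 4.3.3, empirical Bayes with a trend, Benjamini-Hochberg over 11591 genes, adjusted p below 0.05), fitted on these libraries only. The difference from quiescent cells was an interaction over 14 libraries. Exact permutation used scipy 1.17.1. GC content and transcript length came from GENCODE M21 on GRCm38, with no match for 14 tested genes, and their trend was removed with mgcv 1.9.3. Promoters came from RefSeq.

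The members and gene lists were chosen with earlier results of these data known. Named genes are Foxm1 and the 12 highest and 12 lowest genes with a gene name. Those had an unadjusted p below 0.05, separate groups and 5 FPKM in the higher group. To them were added 3 lncRNA or TEC genes each way at 1 FPKM, and from each list the 4 smallest p-values. Examples are given from these, and others (Rps27, Dusp7, Ccn2, Mki67 and further pathway genes) were chosen after their values were seen. Other scalings, filters, pseudocounts, models and left-out libraries were tried.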

Additional observations from a re-analysis of the deposited data

Results flagged for a closer look

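In groups of 4 libraries, 1 library was set apart when its gap to the nearest of the others, as a share of the group's range, exceeded the 95% critical value of Dixon's test. Of 91 named genes, 9 had such a library among the shFoxM1 libraries, and chance flags about 1 in 20 groups. Replicate 3 was the highest for Pmepa1 (gap 0.902 of the range), Dusp4 (0.864) and Slc36a1 (0.866), and the lowest for 4930461G14Rik (0.923). Replicate 4 was the lowest for Cdh2 (0.923) and E2f8 (0.855), and the highest for Rmrp (0.885). Replicate 1 was the highest for Prrg4 (0.945) and the lowest for Gm10076 (0.897). Replicate 3 is the shFoxM1 library with the most Foxm1 RNA, and replicate 4 the one that lay beside shControl replicate 3. What sets these values apart was not tested.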

How the results depend on the processing

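The count of 0 genes at an adjusted p below 0.05 changed to 2300 with equal FPKM sums, 3194 with array weights and 1058 at an unadjusted p, and leaving out 1 library gave 0 to 1 (Gm13577 without shFoxM1 replicate 3, B230307C23Rik without shControl replicate 1). Leaving out shFoxM1 replicate 4 and shControl replicate 3 together, chosen after seeing the data, gave 1 (Rmrp, -0.94). The 748 higher genes became 6048 with equal FPKM sums, 326 with quantile normalization, 1700 with equal protein-coding sums, 303 with median-of-ratios scaling, 3894 under array weights, 317 to 1591 with 1 library left out and 1748 with both left out. The 310 lower genes became 510 with no filter, 201 in a model of 14 libraries, 12 with equal FPKM sums, 623 with median-of-ratios scaling, 114 with equal protein-coding sums, 1048 with array weights, 169 with the GC and length trend taken out, 182 to 414 with 1 library left out and 472 with both left out. Foxm1 passed with array weights (-1.20, adjusted p = 0.00841), and the other 22 alternatives kept its direction and side. The difference between states gave 0 under all 24 alternatives.

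Replicate numbers did not pair the samples: correlations of same-numbered deviations were -0.15, 0.22 and -0.19. A replicate block called 0 genes, and with the GC and length trend taken out 1 (Sprr1a, 2.34). Under the block the signs turned for Cdk1 (0.067), Mki67 (0.24, or 0.090 with the trend taken out as well) and Cdkn1a (-0.0074), as with shFoxM1 replicates 1 to 3 only.

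With equal FPKM sums the median of all genes was 0.52. Under that scaling signs turned for Cdc25b (0.083), Ccnb2 (0.10), Cdc20 (0.19), Ccnb1 (0.12), Cdk1 (0.34) and Mki67 (0.41). Signs turned there as well for Rplp1 (0.088), Hist1h1c (0.078), Ndufa1 (0.076), Sdhb (0.18) and Snhg8 (0.19). They also turned for Plk1 with median-of-ratios scaling (-0.061), for Mki67 with equal protein-coding sums (0.072) and array weights (0.17) and for Cdkn1a with array weights (-0.25). With 1 library left out the values crossed 0 for Plk1 (-0.044 to 0.19), Cdk1 (-0.45 to 0.11), Mki67 (-0.30 to 0.24) and Cdkn1a (-0.15 to 0.40). The causes were not tested. Depth limits genes near 1 FPKM most, and 3 shControl libraries limit every comparison.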
